A study of Mus musculus with 8 samples.

Results

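In Chd1 KO mouse ES cells, 221 DNA double-strand break (DSB) peaks were distal and lacked an unbroken run of G and C. Distal means over 1 kb from annotated transcript starts, and most other peaks hold such a run. These run-free distal peaks were chosen from the 5671 Chd1 KO peaks by position and sequence alone. The summit had to be more than 1 kb from every annotated transcription start site (TSS), which 1998 peaks met, and the peak had to hold no stretch of 12 bp or more made only of G and C. They made up 11.1% of the distal peaks (Wilson 95% interval 9.76% to 12.5%) and 3.90% of all Chd1 KO peaks. The Chd1 KO cells were Chd1Δ/Δ and the control cells, titled WT, were Chd1fl/Δ, so the control cells also carried 1 deleted Chd1 allele beside the floxed one. Both are mouse ES cells, pluripotent cells that were grown in serum with LIF. DSB-seq had 2 replicates per genotype, which the authors pooled before calling 1 list of peaks for each, with 54 peaks in control. The pooled lists hold no replicate error, so no value below has one and no test between genotypes was run. Intervals cover counting error only. Other assays of the series were not analyzed here.

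In DSB-seq, broken DNA ends in fixed nuclei are labeled with biotin by terminal transferase, pulled down and sequenced. Chd1 uses ATP to move and space nucleosomes at transcribed genes. Tandem repeats are stretches in which a unit is copied head to tail, called microsatellites when the unit is short and minisatellites when it is longer. They are known to change length and to slow DNA polymerases. Stretches in which purines and pyrimidines alternate, such as CA repeats, can form left-handed Z-DNA, and several neighboring runs of G can fold into a G-quadruplex.

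The sequences below show what stood under these peaks. Each is the plus strand of 200 bp of mm9. The first 4 have capitals on the stretch that met the repeat criterion, in the peak with the highest or next highest fold enrichment in its class, and the fifth on such a stretch poor in G and C that was a peak in both genotypes.
chr2:164531936-164532135, minisatellite near Spint4: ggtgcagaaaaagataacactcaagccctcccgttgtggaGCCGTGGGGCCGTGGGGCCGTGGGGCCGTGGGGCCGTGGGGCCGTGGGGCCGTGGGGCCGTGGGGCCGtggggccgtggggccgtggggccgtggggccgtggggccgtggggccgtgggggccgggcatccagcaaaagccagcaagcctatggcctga
chr17:24799128-24799327, minisatellite near Npw: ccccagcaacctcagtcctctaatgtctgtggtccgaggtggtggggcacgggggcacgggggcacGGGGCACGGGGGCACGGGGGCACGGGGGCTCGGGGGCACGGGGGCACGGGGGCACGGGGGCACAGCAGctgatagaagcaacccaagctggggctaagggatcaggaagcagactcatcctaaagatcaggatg
chr3:29895088-29895287, simple repeat in an intron of Mecom: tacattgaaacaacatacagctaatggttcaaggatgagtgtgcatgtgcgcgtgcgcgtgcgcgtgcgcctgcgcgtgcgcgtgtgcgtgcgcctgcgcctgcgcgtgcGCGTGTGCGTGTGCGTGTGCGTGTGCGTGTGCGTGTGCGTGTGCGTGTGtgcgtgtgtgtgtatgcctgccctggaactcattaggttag
chr6:93615406-93615605, CA repeat, intergenic: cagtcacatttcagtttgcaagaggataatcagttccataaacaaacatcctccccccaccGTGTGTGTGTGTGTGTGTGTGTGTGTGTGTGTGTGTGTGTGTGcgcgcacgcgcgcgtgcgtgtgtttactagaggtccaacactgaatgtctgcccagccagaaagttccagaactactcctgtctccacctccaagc
chr4:20118936-20119135, minisatellite in an intron of Nkain3: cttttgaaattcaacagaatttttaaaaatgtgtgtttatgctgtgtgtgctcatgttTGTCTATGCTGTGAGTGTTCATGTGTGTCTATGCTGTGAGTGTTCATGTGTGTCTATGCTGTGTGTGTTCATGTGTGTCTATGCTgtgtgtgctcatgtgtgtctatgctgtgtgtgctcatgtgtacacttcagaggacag
The next pair belongs to the classes without a tandem repeat. Capitals mark a G-quadruplex motif in the first and the 20-bp window with the most G and C in the second.
chr17:17963918-17964117, near Mir99b: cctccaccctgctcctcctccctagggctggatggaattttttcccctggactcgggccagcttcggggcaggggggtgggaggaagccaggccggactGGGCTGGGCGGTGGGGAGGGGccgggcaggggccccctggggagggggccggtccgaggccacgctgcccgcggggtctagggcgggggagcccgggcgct
chr10:7582398-7582597, in an intron of Zc3h12d: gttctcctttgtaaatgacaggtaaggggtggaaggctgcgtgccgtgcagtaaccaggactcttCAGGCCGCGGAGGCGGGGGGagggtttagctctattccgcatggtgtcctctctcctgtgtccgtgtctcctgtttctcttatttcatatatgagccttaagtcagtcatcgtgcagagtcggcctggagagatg
The next 3 hold none of the searched features and were peaks in both genotypes. The second of them may be a copy of ribosomal RNA sequence, which was not tested. Capitals mark the longest run of G and C near the summit.
chr1:48938356-48938555, intergenic, highest fold enrichment: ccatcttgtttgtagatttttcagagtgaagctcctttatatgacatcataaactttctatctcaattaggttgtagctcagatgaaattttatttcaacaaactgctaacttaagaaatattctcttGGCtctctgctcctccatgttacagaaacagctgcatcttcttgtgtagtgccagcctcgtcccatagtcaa
chr8:15519790-15519989, intergenic: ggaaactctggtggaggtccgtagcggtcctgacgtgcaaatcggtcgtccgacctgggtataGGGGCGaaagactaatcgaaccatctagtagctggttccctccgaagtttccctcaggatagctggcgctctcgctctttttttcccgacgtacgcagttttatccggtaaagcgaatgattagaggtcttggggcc
chrY:1790505-1790704, intergenic: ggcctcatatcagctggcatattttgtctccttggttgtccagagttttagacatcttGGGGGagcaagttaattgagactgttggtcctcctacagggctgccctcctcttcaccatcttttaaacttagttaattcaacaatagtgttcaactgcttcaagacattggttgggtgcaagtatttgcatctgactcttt
The last is a distal peak just outside the rule, with its run of 12 bp in capitals.
chr4:82732977-82733176, intergenic, not run-free: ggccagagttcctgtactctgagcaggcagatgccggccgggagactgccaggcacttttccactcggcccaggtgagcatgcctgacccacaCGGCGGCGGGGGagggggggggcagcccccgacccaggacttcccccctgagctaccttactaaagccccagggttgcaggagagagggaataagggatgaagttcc

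The numbers of peaks just inside and just outside the limit of 12 bp were equal, as the plot of longest runs shows. A longest run of 11 bp was found in 50 run-free peaks, and one of 12 bp in 50 other distal peaks. The median fold enrichment, which is the authors' ratio of reads at the summit to the local background with 1 added to each, was 4.46 (quartiles 4.06 and 5.02) at 11 bp and 4.35 (quartiles 3.93 and 4.78) at 12 bp. The medians of the GC content were 57.9% and 59.0%. The highest peak with a run of 11 bp was the minisatellite near Spint4, at 8.88, and the highest with a run of 12 bp lay at chr4:82732934-82733227, at 6.82. At the other end, 97 run-free peaks had no run of 8 bp or more.

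**Figure D1:**
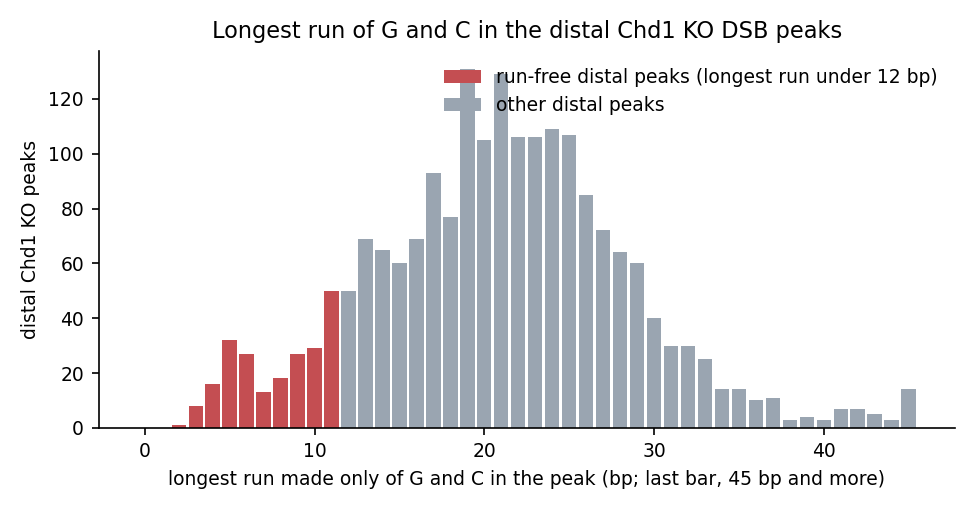
Number of distal Chd1 KO peaks (vertical axis) by the longest run of G and C in the peak in bp (horizontal axis). Red bars are the 221 run-free distal peaks and gray bars the 1777 other distal peaks. Both the bar at 11 bp and the bar at 12 bp hold 50 peaks.

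Many of the run-free peaks held a nearly unbroken stretch of G and C, that is, the same kind of sequence interrupted by single letters. With up to 2 letters A or T allowed inside it, the longest such stretch had a median of 19 bp (quartiles 14 and 24), and 106 peaks (48.0%, interval 41.5% to 54.5%) held one of 20 bp or more, against 97.7% of all Chd1 KO peaks. A stretch of this kind is called a GC-rich window below. In the other distal peaks the median was 31 bp. The rule sets part of this difference. The center of the stretch lay within 100 bp of the summit in 93 of the 106 peaks (87.7%), at a median distance of 38.5 bp. For the longest unbroken run of the other distal peaks it was 91.3%, at a median of 37 bp. The run-free peaks had a median width of 248 bp, so a stretch inside one lies near the summit in any case. In 24 run-free peaks (10.9%) there was an unbroken run of 12 bp or more not in the peak but within 100 bp beside it.

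The fold enrichment and width of the run-free peaks overlapped those of the other peaks, with lower medians. Their fold enrichment had a median of 4.41 (quartiles 3.82 and 5.06, range 2.18 to 10.5), against 4.82 (quartiles 4.27 and 5.56) in the other distal peaks and 4.53 within 1 kb of a TSS. Their width had a median of 248 bp, against 279 bp and 316 bp. A median of 21 extended reads lay at the summit, with a range of 14 to 140, and the authors' −log10 q-value had a median of 5.79. Outside chromosome Y the run-free peaks had fold enrichments of 3.15 to 10.5, widths up to 508 bp and up to 45 reads. The other distal peaks had fold enrichments of 3.14 to 10.4, widths up to 784 bp and up to 60 reads. The quartiles of fold enrichment overlapped between the groups, and with 1 list there is no replicate error to set the difference against.

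Most run-free peaks were intergenic, by the GENCODE M1 annotation of mm9. The summit was intergenic in 139 (62.9%, interval 56.4% to 69.0%), against 49.7% (interval 47.4% to 52.0%) of the other distal peaks. It lay in an intron in 66 (29.9%, interval 24.2% to 36.2%), against 43.1% (interval 40.8% to 45.4%), in a coding exon in 15 and in another exon in 1. Outside chromosome Y, where all 19 run-free peaks were intergenic, the intergenic share was 59.4% and the intronic share 32.7% (interval 26.6% to 39.4%). The median distance to the nearest TSS was 21.2 kb (quartiles 7.21 and 61.9 kb), and the farthest lay 352 kb away. The start of a RefSeq gene, found by matching 100 bases of its promoter to mm9, lay within 1 kb of 9 summits (4.07%, interval 2.16% to 7.56%), against 5.01% of the other distal peaks. The 15 peaks in coding exons had a median GC content of 69.2%, against 54.2% in all run-free peaks, and a median fold enrichment of 3.86.

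Tandem repeats of longer units lay in 51 run-free peaks. With a unit of 7 to 60 bp, repeated so that at least 80% of the bases matched over 60 bp, the share was 23.1% (interval 18.0% to 29.1%), against a background of 2.84% of all Chd1 KO peaks and 3.94% (interval 3.13% to 4.95%) of the other distal peaks. The rule did not use such repeats, but a repeat with an A or T in each short unit cannot contain a long run. The unit was 7 to 12 bp in 26 of the 51, most often 8 bp (13 peaks), and over 20 bp in 14. In 30 peaks at least 95% of the bases matched. A G-quadruplex motif lay in 31 of the 51, and 12 also held a simple or CA repeat, whose copies can count as a longer unit.

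**Figure D2:**
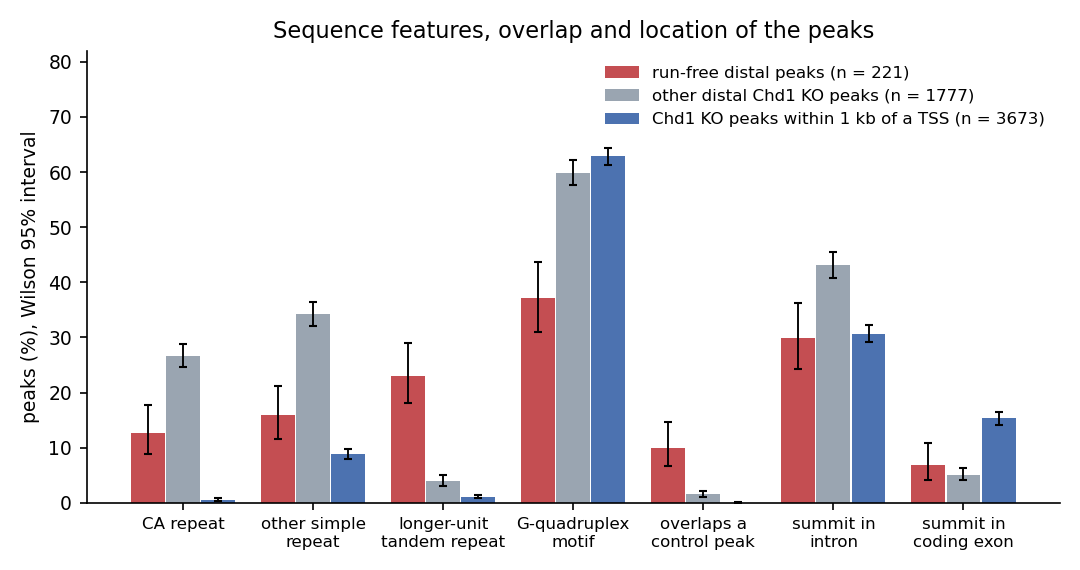
Share of peaks in percent (vertical axis) with each sequence feature, overlapping a control peak, or with the summit in an intron or coding exon (horizontal axis). Bars are the 221 run-free distal peaks, the 1777 other distal peaks and the 3673 peaks within 1 kb of a TSS, with Wilson 95% intervals. For longer-unit repeats (23.1% and 3.94%) and overlap with control peaks (9.95% and 1.52%) the interval of the run-free peaks lies above that of the other distal peaks, and for CA repeats, other simple repeats, motifs and introns it lies below.

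Minisatellites without a simple or CA repeat made up 5 of the 10 run-free peaks with the highest fold enrichment, against 39 (17.6%) of all 221. The peak of 507 bp near Spint4, which encodes a Kunitz-type protease inhibitor, lay on chromosome 2 (chr2:164531797-164532303) with 45 reads at the summit over a background of 4.18 and a fold enrichment of 8.88. Its unit of 8 bp matched at 100% of the bases. The peak at chr17:24799057-24799412, 3.88 kb from the TSS of the neuropeptide gene Npw, had 42 reads and a fold enrichment of 8.85, also with a unit of 8 bp that matched at 91.7% of the bases. Neither overlapped a control peak.

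The other 3 of these minisatellites differed in unit length and base composition. At chr9:66909122-66909496, 12.1 kb from the TSS of the tropomyosin gene Tpm1, the unit was 9 bp and the fold enrichment 7.56, with 38 reads. In an intron of Tm9sf3, chr19:41316294-41316641, the unit was 20 bp and the fold enrichment 7.17, with 29 reads. The peak of 346 bp in an intron of Nkain3, chr4:20118865-20119210, had a unit of 25 bp, a GC content of 37.0% and no run of G and C over 3 bp. It reached a fold enrichment of 7.89 with 32 reads in Chd1 KO and 7.85 with 30 reads in control.

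Simple repeats of units of 1 to 6 bp, other than CA, filled at least 20 bp in 35 run-free peaks (15.8%, interval 11.6% to 21.2%), against 17.1% of all Chd1 KO peaks and 34.3% of the other distal peaks. The latter include runs of G alone and repeats of only G and C, which the rule removes here. In 31 of the 35 the unit held exactly 1 A or T, and in 26 it was 6 bp long. The commonest unit was AGGCGG, on either strand, in 7 peaks with a longest tract of 95 bp, followed by AGCCGG and ACGC in 4 peaks each, with longest tracts of 133 bp and 37 bp. Fold enrichment reached 5.71, 5.86 and 4.66 for these units. Of the 11 peaks with AGGCGG or AGCCGG, grouped after their values were seen, 10 were intergenic. In 10 peaks the unit consisted of A, C and G in strict alternation of purine and pyrimidine. The highest of these, chr3:29895025-29895291, lay in an intron of Mecom, a zinc-finger transcription factor gene, 1.46 kb from its TSS. It held a tract of 49 bp inside an alternating stretch of 75 bp and had 29 reads and a fold enrichment of 7.17.

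CA repeats of at least 20 bp lay in 28 run-free peaks (12.7%, interval 8.91% to 17.7%). The background was 9.2% of all Chd1 KO peaks, and the share was 26.7% (interval 24.7% to 28.8%) in the other distal peaks. Among the 127 run-free peaks with all 50-mers unique in mm9 it was 5.51% (7 peaks, interval 2.70% to 10.9%). The shares of the other sets were not filtered in this way. The repeats had a median length of 35 bp in the run-free and in the other distal peaks. In 27 of the 28 the stretch of alternating purine and pyrimidine went at least 6 bp beyond the CA repeat, as it did in 96.0% of the 474 other distal peaks with a CA repeat. Its median was 63.5 bp in the run-free peaks and 65.0 bp in the others. The center of the CA repeat lay within 100 bp of the summit in 26 of the 28 (92.9%), at a median distance of 41.5 bp. In the other distal peaks with a CA repeat it was 95.1%, at a median of 37 bp. None of the 28 held a G-quadruplex motif.

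Of the 2 CA repeats with the highest fold enrichment, 1 was a peak in control as well. The intergenic peak at chr6:93615233-93615733 had a CA repeat of 43 bp in an alternating stretch of 67 bp. It had 44 reads and a fold enrichment of 8.49 in Chd1 KO, and 20 reads and a fold enrichment of 4.98 in control, the largest difference at any shared run-free site. The peak at chr6:115983971-115984410, in an intron of Tmcc1, a gene of an endoplasmic reticulum membrane protein, had 38 reads and a fold enrichment of 8.16 in Chd1 KO and did not overlap a control peak.

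A G-quadruplex motif, 4 runs of 3 or more G on one strand with loops of 1 to 7 bp, was found in 82 run-free peaks (37.1%, interval 31.0% to 43.6%), against 60.9% of all Chd1 KO peaks. The motif shares bases with runs of G and C, so the rule lowers its share, as it does that of GC-rich windows. The highest peak with a motif and no tandem repeat was chr17:17963876-17964161, 3.15 kb from the TSS of the microRNA gene Mir99b, with 27 reads and a fold enrichment of 6.69. The highest in which the GC-rich window was the only feature, chr10:7582231-7582624 in an intron of Zc3h12d, had 26 reads and a fold enrichment of 5.09. A purine tract of at least 30 bp was found in 3 run-free peaks (1.36%), against 1.57% of all Chd1 KO peaks and 3.32% of the other distal peaks. The highest, chr8:60415887-60416158 in an intron of Galntl6, had a fold enrichment of 4.43 and also held a longer-unit repeat and a G-quadruplex motif.

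Each peak was then counted once, under the first of these features that it held. CA repeats took 28 peaks, other simple repeats 30, longer units 39, G-quadruplex motifs 47 and the GC-rich window 21, and 56 (25.3%, interval 20.1% to 31.5%) held none of them. The median fold enrichment was highest for longer units, at 5.26 (quartiles 4.37 and 6.47), followed by 4.70 for CA repeats, 4.40 for other simple repeats, 4.33 for G-quadruplex motifs and 4.17 for the GC-rich window. It was 3.82 (quartiles 3.51 and 4.54) for peaks with none. Only 4 of the 1777 other distal peaks (0.225%) held none of the features. Nearly all of these other distal peaks (99.7%) held a GC-rich window. The rule, which gives each of them a run of 12 bp or more, sets part of this.

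The GC content around the summit was highest in the peaks with longer units. Within 40 bp of the summit it averaged 68.1% for longer units, 64.3% for other simple repeats, 63.9% for G-quadruplex motifs and GC-rich windows together, and 55.3% for CA repeats, against 61.6% in the other distal peaks. More than 500 bp away it was 44.0%, 45.0%, 48.1%, 44.5% and 46.4%, respectively. The 38 peaks without any feature outside chromosome Y went from 43.8% to 50.2%, and the 18 on chromosome Y from 37.5% to 41.3%. For the last set the highest 20-bp bin, 47.5%, lay 290 bp from the summit.

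**Figure D3:**
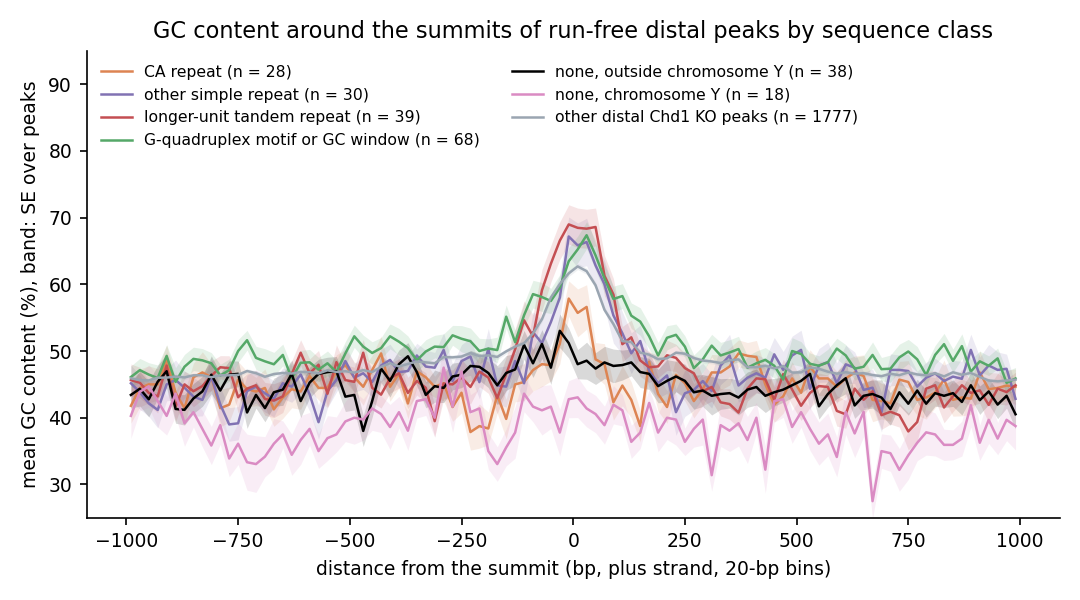
Mean GC content in percent in 20-bp bins (vertical axis) against distance from the summit in bp (horizontal axis), for the run-free peaks by class and for the other distal peaks. Bands are the SE over peaks. The 3 classes of longer-unit repeats, other simple repeats and motif or window peaks rise above 60% at the summit, while the peaks without any feature outside chromosome Y average 50.2% within 40 bp of it and those on chromosome Y 41.3%.

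The 56 peaks without any of the features fell into 18 on chromosome Y and 38 elsewhere. The 38 had a median GC content of 47.8% and a median longest run of 5 bp, and a median of 19 reads with a fold enrichment of 4.06 (quartiles 3.59 and 4.76). The run-free peak with the highest fold enrichment of all, 10.5, was among them. It was intergenic, 214 kb from the nearest TSS, at chr1:48938238-48938619, with a GC content of 38.5% and a longest run of 4 bp. It had 43 reads at the summit in Chd1 KO over the lowest background of that library, and 35 reads with a fold enrichment of 9.11 in control. All of its 50-mers were unique in mm9. The peak at chr8:15519758-15519961 had 25 reads in Chd1 KO and 26 in control. Of its 50-mers 29.0% were unique in mm9. To the eye its sequence resembles that of large-subunit ribosomal RNA, which is present in many copies. It was not compared with a ribosomal reference, and where in the genome its reads arose was not tested.

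All 19 Chd1 KO peaks on chromosome Y were run-free distal peaks, against 202 of the 5652 peaks elsewhere. In mm9 83.0% of chromosome Y is unsequenced. The 19 peaks differed from the others in several readouts. Their local background had a median of 23.2 reads (quartiles 12.9 and 34.8), against 3.44 outside chromosome Y, and at all but 1 of them it was at least 9.70. Their median of reads at the summit was 63, against 20, and their median fold enrichment 3.24, against 4.49. The median share of 50-mers unique in mm9 was 33.8%, against 100%, and their median GC content was 40.4%, against 56.4%. The exception was chrY:1266634-1266912, 160 kb from the TSS of Zfy2, with 30 reads over a background of 3.18 and a fold enrichment of 7.41. The other 18 lay in 3 groups, whose summits spanned 2.42 kb, 16.5 kb and 49.6 kb. They included the 3 widest run-free peaks, of 1008 bp, 1005 bp and 664 bp. The part of repeated sequence in the background and reads was not tested.

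**Figure D4:**
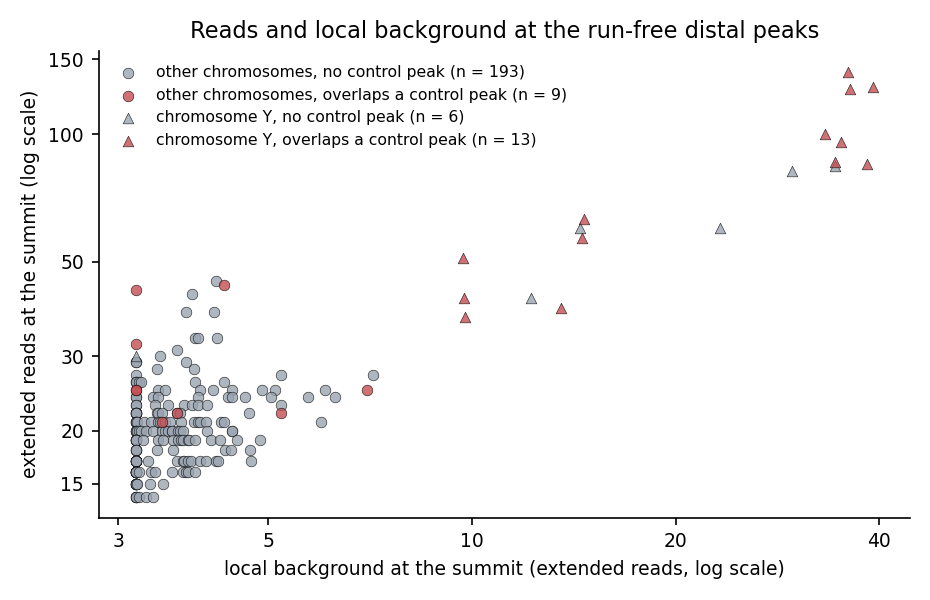
Extended reads at the summit (vertical axis) against the local background in extended reads (horizontal axis), both on log scales, for the 221 run-free distal peaks in Chd1 KO. Circles are peaks outside chromosome Y and triangles peaks on it, and red marks an overlap with a control peak. All but 1 of the triangles lie at a background of at least 9.70 reads, beyond every circle.

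Outside chromosome Y, 4 run-free peaks had a background over 6 reads. A set of 4 neighboring peaks, which are not these same 4, lay on chromosome 8 from 73654495 to 73673095. Their summits spanned 18.2 kb, and their backgrounds ran from 3.30 to 6.06 reads. They had fold enrichments of 3.15 to 4.93, and none held a searched feature. Parts of 20 run-free peaks (9.05%, interval 5.93% to 13.6%) matched a coding transcript of another gene at 85% identity or more, against 3.77% (interval 2.98% to 4.76%) of the other distal peaks. Without chromosome Y it was 15 of 202 (7.43%, interval 4.55% to 11.9%). Among them was chr3:58469882-58470172, with 95.7% identity to Armc10 over 185 bp, a peak chosen after its values were seen. The search took whole transcripts, and whether the matches are retrocopies of genes was not tested. Of the 221 peaks 217 had no blastn match to another one. The search used default settings, which mask short repeats, so peaks that share a repeat unit can be among the 217.

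Overlap with control peaks was not used to choose the run-free peaks. An overlap of at least 1 bp was found for 22 (9.95%, interval 6.67% to 14.6%), against a background of 0.864% of all Chd1 KO peaks, 1.52% (interval 1.05% to 2.20%) of the other distal peaks and none of the 3673 peaks near a TSS, where 3 counts would be 0.0817% and the upper Wilson limit is 0.104%. Chromosome Y gave 13 of the 22. Without it 9 of 202 overlapped (4.46%, interval 2.36% to 8.25%). Among the 127 run-free peaks with all 50-mers unique in mm9, 3 overlapped (2.36%, interval 0.807% to 6.72%). This interval meets that of all the other distal peaks, which were not filtered in this way. All 50-mers were unique in 57.5% of the run-free peaks and 72.8% of the other distal peaks. The share of run-free peaks with an overlap was 5.84% at a fold enrichment of at least 4, and 5.43% where runs of at least 15 bp were barred. Of the 9, 4 were among the 38 peaks outside chromosome Y that held no feature (10.5%, interval 4.17% to 24.1%). Among all run-free peaks with a feature, 6 of 165 overlapped (3.64%, interval 1.68% to 7.71%). Of the 221, 183 (82.8%) had a p-value at or below that of the weakest control peak. Their −log10 p-value had a lower quartile of 7.54, against 8.08 in all Chd1 KO peaks and 8.56 in the other distal peaks. Each lies above the 7.13 of that control peak, so most peaks of each of these sets pass it.

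At most shared sites the reads of both genotypes lay close together. On chromosome Y, the 13 sites had 37 to 140 reads in Chd1 KO and 38 to 143 in control, over backgrounds of 9.70 to 39.1 and 10.5 to 39.3. The ratio of Chd1 KO to control reads had a median of 1.02 and ranged from 0.788 to 1.16, while the lowest background of the libraries, which follows their depth, was 3.18 in Chd1 KO and 2.95 in control. At the 9 other sites the ratio had a median of 1.07 and ranged from 0.808 to 2.20, with 21 to 44 reads in Chd1 KO and 17 to 35 in control. The fold enrichment was higher in Chd1 KO at 13 of the 22 sites. Sites called in only 1 genotype are not in this comparison.

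**Figure D5:**
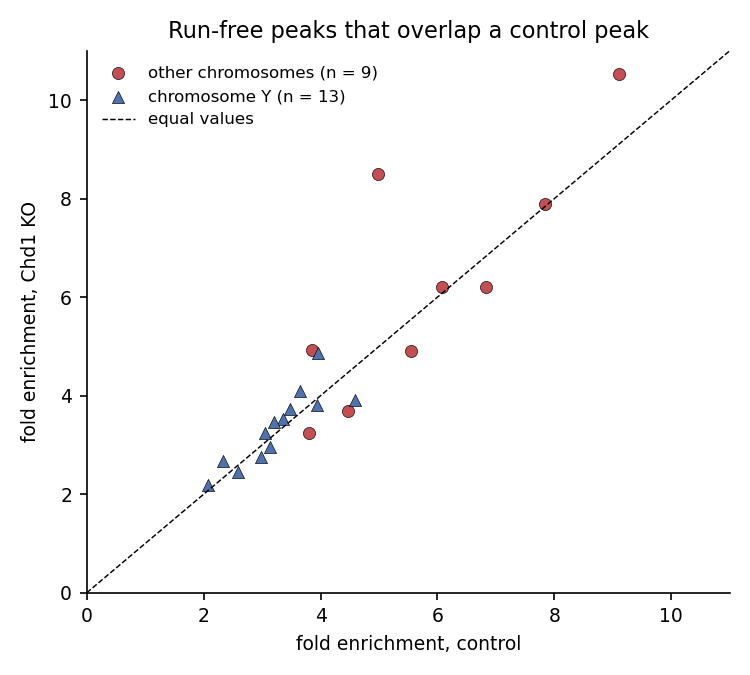
Fold enrichment in Chd1 KO (vertical axis) against control (horizontal axis) at the 22 run-free distal peaks that overlap a control peak. Circles are sites outside chromosome Y and triangles sites on it, and the dashed line marks equal values. Most points lie near the line, and the farthest above it is the CA repeat on chromosome 6, with 8.49 and 4.98.

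The remaining shared sites outside chromosome Y showed no common direction. In an intron of Sos2, which encodes a guanine nucleotide exchange factor, the peak at chr12:70755013-70755369 had 25 reads in Chd1 KO and 23 in control. In an intron of Dlgap2, a gene of a postsynaptic scaffold protein, chr8:14306916-14307124 had 21 and 26 reads. The peak at chr1:85295981-85296243 had 22 and 17 reads, and none of its 50-mers was unique in mm9. A shared site on chromosome 11 had 22 reads in Chd1 KO and 26 in control. Another, on chromosome 4, had 25 and 30. On chromosome Y, chrY:2781674-2782681 had 140 and 143 reads, chrY:2901554-2902084 had 63 and 62 reads, and chrY:1792793-1793153 had 41 and 52 reads.

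Applied to the control list, the same rule kept 27 of the 54 peaks (50.0%, interval 37.1% to 62.9%), against 11.1% of the distal Chd1 KO peaks. Of the 27, 14 were on chromosome Y and 13 elsewhere, and 22 (81.5%) held none of the sequence features. All 54 control peaks were distal. Just 4 of the 54 overlapped no Chd1 KO peak, and all 4 were run-free and without a feature. In the whole control list, 22 of the 54 were run-free and without a feature. They lay at chr1:103608580-103608779, chr6:31811248-31811534, chr8:73655629-73655855 and chrX:121315546-121315749, with 23 to 29 reads and fold enrichments of 4.23 to 7.59. The peak on chromosome 8 lay inside the span of the 4 neighboring Chd1 KO peaks given above. The control list ends at a −log10 p-value of 7.13 and the Chd1 KO list at 4.88, so the shares of the lists stand for different cutoffs.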

How the data were processed

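DSB-seq values came from the peak lists that the authors deposited, 1 for Chd1 KO and 1 for control, each called on 2 pooled replicates. Per the labels and the study's methods, reads were aligned to mm9 with Bowtie2 and peaks were called with MACS2. Reads with a mapping quality below 13 were dropped, and at most 1 read per position was kept. Peaks in blacklisted regions were removed from the lists. The MACS2 options stated in the methods name no input library. The deposited columns give fold enrichment (a ratio over the local background), −log10 p-value and −log10 q-value at the summit. Reads and background at the summit, in reads extended to 200 bp, were recovered here from these columns, and the largest misfit was 0.000135. Depth in total reads was not used here. The lowest background, which follows depth, was 3.18 reads in Chd1 KO and 2.95 in control.

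TSS positions and gene locations were taken from GENCODE M1, and sequence from mm9. RefSeq promoters and coding transcripts were matched by sequence. Peaks were searched on both strands for CA repeats and other simple repeats (units of 1 to 6 bp) of at least 20 bp, purine tracts of at least 30 bp, longer-unit repeats, G-quadruplex motifs and GC-rich windows (18 of 20 bp). A shared peak overlapped a control peak by at least 1 bp. No test was run, because each genotype has 1 list. Shares have Wilson 95% intervals. The scripts recovered the features of simulated sequences. The peaks, features and lists were chosen with earlier results of these data known.

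Named peaks were the 10 with the highest fold enrichment, up to 10 shared with control, the highest of each feature and class, the 3 widest, and the highest at runs of 11 and 12 bp. The set of 4 neighboring peaks on chromosome 8 and the 4 control peaks without a Chd1 KO overlap were given outside this rule. Any other is said to be chosen later. Each is given its host gene or the nearest TSS. Python 3.11.15, NumPy 2.4.6, SciPy 1.17.1, pandas 2.3.3, pysam 0.24.0, samtools 1.23.1 and blastn 2.17.0 (expectation limit 1e-10) were used.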

Additional observations from a re-analysis of the deposited data

How the results depend on the processing

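Of 92 values computed under 15 other settings, 71 stayed within the 95% interval of the reported value or, for the number of peaks, within 1.5 times of it. The number of peaks ran from 154 (fold enrichment of at least 4) to 233 (TSSs of protein-coding transcripts) under these. With runs of at least 10 bp barred, 142 peaks remained, 7.11% of the distal peaks, with a GC content of 52.3%, motifs in 27.5% and control overlap in 14.8%. With runs of at least 15 bp barred, there were 405 peaks, 20.3% of the distal peaks, with CA repeats in 17.8% and control overlap in 5.43%. Peaks with a fold enrichment of at least 4 gave a median of 4.80, a share of 9.17% of the distal peaks and control overlap in 5.84%. On autosomes alone the control overlap was 4.48%. G-quadruplex loops of up to 12 bp raised the motif share to 45.7%. A pair of alternatives was chosen after seeing the data. Without chromosome Y the control overlap was 4.46%. Among peaks with all 50-mers unique in mm9, 127 remained, 8.94% of the distal peaks, with a GC content of 57.1%, CA repeats in 5.51%, motifs in 49.6% and control overlap in 2.36%.

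No paired analysis was possible because replicates were pooled before peak calling. The lists hold no replicate error, and sites below the cutoff of a list have no value there.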
